A study of Mus musculus with 6 samples.

Results

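The genes described here are 10 genes of fatty acid binding, fatty acid uptake and lipid droplets, out of 14408 genes listed in the table, and all 10 were found there by symbol. They are the fatty acid binding protein genes Fabp3, Fabp4 and Fabp5, the uptake genes Cd36, Slc27a1 and Slc27a4, the droplet coat genes Plin2 and Plin3, the lipase gene Pnpla2 and the lipase inhibitor gene Hilpda. Polyadenylated RNA labelled as heart tissue, from the left ventricle per the extraction protocol, was sequenced from 3 libraries of mice given L-proline and 3 libraries of mice given PBS, the vehicle. L-proline was injected intraperitoneally at 300 mg/kg per day for 4 to 8 weeks. The mice of both groups were C57BL/6J males that entered the study at 8 weeks of age, and HFpEF (heart failure in which the ejection fraction is preserved) had been induced in them over 8 to 12 weeks. Induction combined a high-fat diet with L-NAME, which blocks nitric oxide synthases, dissolved at 0.5 g/L in the water they drank. Mice without the model were not analysed here. Whether the libraries are from different animals is not stated in the labels, so the p-values cover only library-to-library spread, and that spread may be technical. The question here is whether the genes that carry and store fatty acids differed after L-proline, in a study whose stated interest is ferroptosis and the nuclear receptor PPARγ.

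Fatty acids enter cells with the help of membrane proteins such as CD36 and the SLC27 transporters, which also join some of them to coenzyme A. Inside the cell, fatty acid binding proteins carry them through the cytosol, and surplus is stored as triglyceride in lipid droplets. Perilipins coat the droplets, the lipase PNPLA2 (adipose triglyceride lipase) starts the breakdown of the stored triglyceride, and HILPDA, induced by low oxygen, inhibits that lipase. Fabp4, Plin2, Cd36 and Pnpla2 are known targets of PPAR receptors in several tissues. In heart muscle, which lives largely on fatty acids, FABP3 and CD36 are the abundant forms.

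Levels are given in FPKM, a fragment count that the authors scaled to the length of the gene and the total of the library. Library totals recovered from the values ran from 34990473 to 37498030 fragments, and replicate pairs differed by more than counting noise (chi-square per degree of freedom 8.08 to 81.9). Heart muscle markers were low: of 13 cardiomyocyte genes 8 were in the table, and only Tnnt2 and Nkx2-5 reached 1 FPKM on average. The myoglobin gene Mb averaged 0.112 ± 0.114 FPKM in L-proline and 0.0725 ± 0.0126 FPKM in PBS (SD, n = 3 each). These levels go against a sample made largely of heart muscle, where Mb is an abundant transcript. Fibroblast markers were high, with Col3a1 at 1824 ± 150.1 FPKM in L-proline and 1226 ± 18.5 FPKM in PBS. Markers of cells in which Fabp4 and Cd36 are usually high were mostly low too. Of 10 endothelial markers 6 were in the table, with Pecam1 at 0.0580 ± 0.0135 FPKM in L-proline (21 fragments in all) and 0.0163 ± 0.00809 FPKM in PBS (6 fragments). Cdh5, Tek, Vwf and Egfl7 were also below 1 FPKM, each with a lower mean in L-proline and overlapping groups. Rgcc was more abundant than these markers in both groups, at 6.83 ± 0.366 FPKM in L-proline and 6.16 ± 0.125 FPKM in PBS. Of 10 adipocyte markers 2, Lipe and Car3, were in the table, which did not list Adipoq, Cfd, Lep, Plin1 and Cidec.

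Of the 10 genes, 8 averaged 1 FPKM or more over the 6 libraries and were tested. With limma on log2(FPKM + 1), Slc27a1 and Plin2 rose, Fabp4, Fabp5, Pnpla2 and Hilpda fell, and Slc27a4 and Plin3 did not pass an adjusted p of 0.05. Over all 10500 genes tested 19.6% were called, 7.5% higher and 12.1% lower in L-proline, against 6 of these 8 (2 higher, 4 lower). In the same 6 genes the groups did not overlap, which held for 40.1% of all genes tested, 16% above and 24% below PBS. The median log2 fold change of the 8 was -0.17, beside -0.06 over all genes tested. Such bulk values do not separate fewer cells of a type from less RNA per cell. The genes were chosen with earlier results of these data known, so these counts are a description.

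**Figure D1:**
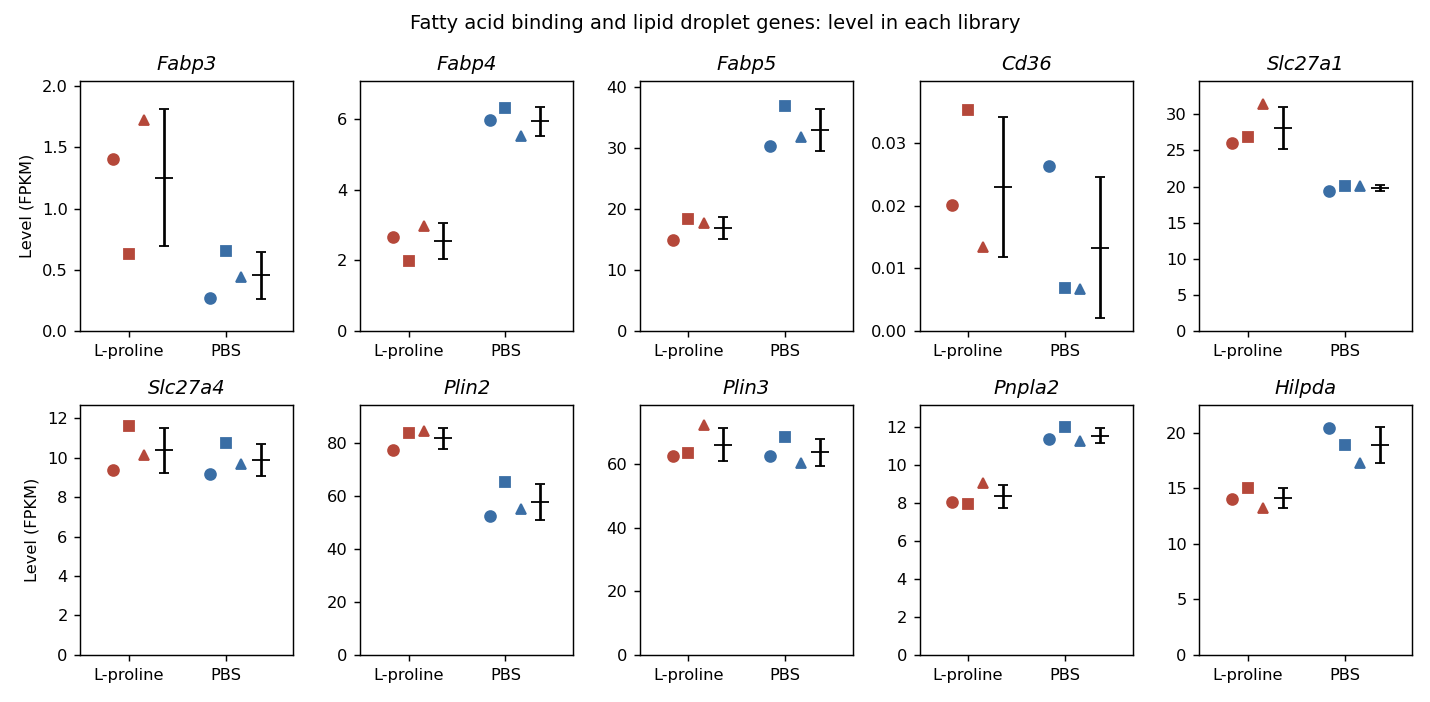
Level in FPKM (vertical axes, from 0) of each of the 10 genes in the L-proline and PBS libraries; circles, squares and triangles are replicates 1, 2 and 3, and the black bar is the mean with its SD (n = 3). The groups do not overlap for Fabp4, Fabp5, Slc27a1, Plin2, Pnpla2 and Hilpda, and Cd36 stays below 0.04 FPKM in all 6 libraries.

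The cytosolic carriers Fabp5 and Fabp4 both fell after L-proline, to 0.514 and 0.430 of their mean PBS levels. Fabp5, the epidermal type and the main fatty acid binding protein in these libraries, stood at 14.9, 18.3 and 17.7 FPKM in L-proline 1, 2 and 3, against 30.2, 36.8 and 31.8 FPKM in PBS 1, 2 and 3. All L-proline libraries lay well below all PBS libraries. The log2 fold change was -0.92 ± 0.10 (SE; limma, adjusted p = 0.00131). Fabp4, the adipocyte type, was several times lower than Fabp5, at 2.68, 1.98 and 2.99 FPKM in L-proline 1, 2 and 3 and 5.98, 6.31 and 5.51 FPKM in PBS 1, 2 and 3. Here too the groups were apart, and the log2 fold change was -0.98 ± 0.12 (limma, adjusted p = 0.00167). Fabp4 rested on 60 to 95 fragments per L-proline library and 175 to 196 per PBS library. For both genes the call was kept in 13 of 13 alternative analyses.

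Fabp3, the heart type, was close to the lower limit of the test and went the other way in its values. It stood at 1.40, 0.630 and 1.72 FPKM in L-proline 1, 2 and 3, backed by 35, 15 and 43 fragments, and at 0.275, 0.655 and 0.441 FPKM in PBS 1, 2 and 3, backed by 7, 16 and 11 fragments. L-proline 2 lay within the PBS range, so the groups overlapped. The mean of 0.854 FPKM over the 6 libraries was under the filter, so Fabp3 was not tested with the others. With no filter its log2 fold change was 0.60 ± 0.19 and did not pass (limma, adjusted p = 0.0851). Fabp3 overlaps Zcchc17 in the RefSeq annotation, and the sources used here do not say whether counting used strand, so fragments from the 2 genes may be mixed. Zcchc17 averaged 14.2 FPKM in L-proline and 14.7 FPKM in PBS.

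Together the 3 binding protein genes summed to 19.0, 20.9 and 22.4 FPKM in L-proline 1, 2 and 3, against 36.5, 43.7 and 37.7 FPKM in PBS 1, 2 and 3. Fabp5 made up 78.5% to 87.5% of that sum in the L-proline libraries and 82.9% to 84.2% in the PBS libraries. Its dominance thus overlapped between the groups while the sum did not. The annotated pseudogenes Fabp5l2 and Fabp3-ps1 bear the names of these genes, and the sources used here do not say how shared fragments were counted.

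Fabp4 and Fabp5 lie in the same gene cluster on chromosome 3, so the genes beside them were examined after their positions were looked up. In the RefSeq order of GRCm38.p6 the protein-coding genes between and after them, Pmp2, Fabp9 and Fabp12, belong to the binding protein family and were not among the genes listed. Zfand1, a zinc finger gene on the Fabp4 side, averaged 8.92 ± 0.883 FPKM in L-proline and 12.4 ± 0.408 FPKM in PBS, or -0.43 ± 0.09 on the log2 scale (limma, adjusted p = 0.0128). That call did not pass without PBS 1 (adjusted p = 0.0618) or without PBS 3 (0.0560). Impa1, the inositol monophosphatase gene that lies nearer, had -0.11 ± 0.12 (adjusted p = 0.543). On the Fabp5 side Zfp704 and Zbtb10, both zinc finger genes, had -0.43 ± 0.14 and -0.23 ± 0.21 (adjusted p = 0.0613 and 0.466). Zfp704 passed in 5 of 12 alternatives: without L-proline 1 (adjusted p = 0.0241), without PBS 2 (0.0484), with sample weights (0.00465), with voom (0.0416) and with the replicate block (0.0273). It had up to 0.165 without another library. Pag1, the nearest gene on that side, was not tested, at 0.109 ± 0.0455 FPKM in L-proline and 0.121 ± 0.0219 FPKM in PBS.

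At the membrane, the scavenger receptor gene Cd36 was at the edge of detection. It had 3, 5 and 2 fragments in L-proline 1, 2 and 3 and 4, 1 and 1 fragments in PBS 1, 2 and 3, which is 0.00671 to 0.0352 FPKM. A count of 3 fragments on this gene corresponds to 0.0198 to 0.0212 FPKM, counting error only, so no difference was detectable at this depth and no fold is given. Slc27a1, the fatty acid transport protein of muscle and fat, was far more abundant and rose. It stood at 26.0, 26.9 and 31.4 FPKM in L-proline 1, 2 and 3, against 19.4, 20.1 and 20.04 FPKM in PBS 1, 2 and 3. The PBS libraries were close together and the L-proline libraries all lay above them. The log2 fold change was 0.48 ± 0.09 (limma, adjusted p = 0.00787), a ratio of means of 1.42. Slc27a4, a related transporter with a role in skin and intestine, did not pass, at 9.38, 11.6 and 10.1 FPKM in L-proline and 9.16, 10.8 and 9.68 FPKM in PBS. Its libraries were interleaved, with a log2 fold change of 0.06 and a 95% interval from -0.17 to 0.30 (limma, adjusted p = 0.680).

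Among the droplet coats, Plin2 rose while Plin3 did not pass. Plin2, the perilipin found on droplets of most cells, had the highest mean of the 10 genes over the 6 libraries, above 93.5% of all listed genes. The pseudogene Gm12551 overlaps it in the annotation. It stood at 77.4, 83.7 and 84.5 FPKM in L-proline 1, 2 and 3, against 52.6, 65.5 and 55.3 FPKM in PBS 1, 2 and 3. The lowest L-proline library was above the highest PBS library, and the log2 fold change was 0.50 ± 0.09 (limma, adjusted p = 0.00875). Plin3, which moves between cytosol and young droplets, was at a like level, with 62.7, 63.6 and 72.2 FPKM in L-proline and 62.5, 68.5 and 60.2 FPKM in PBS. Its groups overlapped, and its log2 fold change of 0.05 had a 95% interval from -0.14 to 0.24 (limma, adjusted p = 0.688).

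The triglyceride lipase gene Pnpla2 and its inhibitor gene Hilpda both fell, by smaller amounts than the binding proteins. Pnpla2 stood at 8.03, 7.97 and 9.07 FPKM in L-proline 1, 2 and 3, against 11.4, 11.99 and 11.3 FPKM in PBS 1, 2 and 3. The groups were apart, with a ratio of means of 0.724 and a log2 change of -0.42 ± 0.08 (limma, adjusted p = 0.00998). Hilpda stood at 14.01, 15.04 and 13.3 FPKM in L-proline 1, 2 and 3, against 20.4, 18.9 and 17.2 FPKM in PBS 1, 2 and 3. The L-proline libraries again lay below all PBS libraries, with a ratio of means of 0.747 and a log2 change of -0.39 ± 0.09 (limma, adjusted p = 0.0183). The Hilpda call was the least stable of the 6, and did not pass without PBS 1 (adjusted p = 0.0840) or without PBS 2 (0.0547). Pnpla2 and Plin2 passed only narrowly without PBS 3 (limma, adjusted p = 0.0490 and 0.0489), where Slc27a1 had 0.0412.

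Sequences before the start sites were searched because Hilpda is a known target of hypoxia-inducible factors (HIF), which recognise the cores ACGTG and GCGTG. Starts and sequences are those of RefSeq on GRCm38.p6, with the 250 bases before each start read on both strands, and the expression table was made on another build. Of the 10 genes 8 had an entry, with 11 windows in all, Fabp4 and Fabp5 being the others. ACGTG was present in 2 of the 11 windows, those of Hilpda and Slc27a1, and in 16.6% of all 32851 windows. GCGTG was present in 3 of the 11, those of Hilpda, Plin2 and Slc27a1, and in 28.2% of all windows, so both shares were near the background. Neither the PPAR element, a direct repeat of AGGTCA with any 1 base between (0.0335% of all windows), nor the FOXO core GTAAACA (3.17%) was found in the windows of the 8. Motifs this rare would mostly be absent from 11 windows anyway, and Fabp4 had no window, so nothing is read from their absence. The stretches with a core before the proximal Hilpda start, before the Plin2 start and before the most downstream Slc27a1 start are shown, each 30 bases in the direction of the gene, with the core in capitals (CACGC and CACGT are the cores on the opposite strand).
Hilpda, chr6:29272503-29272532, + strand: caaccgcgagccGCGTGctttccgtgactc
Hilpda, chr6:29272571-29272600, + strand: gatggccagcggACGTGccccagggcgagc
Hilpda, chr6:29272596-29272625, + strand: cgagctcgtgcaggttcggtacGCGTGcgc
Plin2, chr4:86670128-86670157, - strand: ggttggggttccCACGCcctcatccccaat
Slc27a1, chr8:71570381-71570410, + strand: gggtgtctagccACGTGgtcagtgcttggg
Slc27a1, chr8:71570557-71570586, + strand: gatactaaggtaCACGCtgggggcggggcc
Hilpda, which fell, has 3 cores, at 111, 43 and 8 bases before the proximal start, and in GENCODE M21 the first and second of these overlap an annotated exon of Hilpda. Plin2, which rose, has 1 core 86 bases before its start. In Slc27a1 the ACGTG is part of the palindrome CACGTG, which other factors also bind, and is counted on both strands. A match is a description of the letters in these windows and says nothing of binding here.

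**Figure D2:**
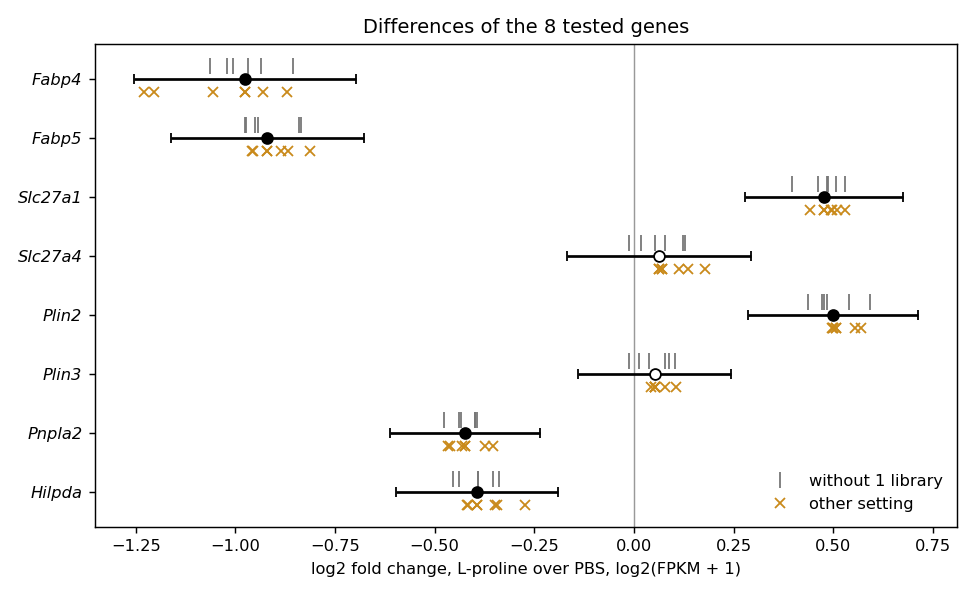
Log2 fold change, L-proline over PBS, on the log2(FPKM + 1) scale (horizontal axis) for the 8 tested genes; circles with bars are the estimates with 95% intervals, filled where the adjusted p is under 0.05, grey ticks leave out 1 library each and crosses are the other settings. Fabp4 at -0.98 and Fabp5 at -0.92 lie farthest from 0, and for Slc27a4 and Plin3 leaving out a library moves the estimate to either side of 0.

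Ratios between related genes within a library do not depend on how that library was scaled. Of 4 ratios compared, 3 had groups that did not overlap, and none could pass because 3 libraries against 3 allow no p below 0.1 (exact permutation test, two-sided; adjusted over the 4 ratios). Plin2 to Plin3 was 1.23, 1.32 and 1.17 in L-proline 1, 2 and 3, against 0.841, 0.955 and 0.918 in PBS 1, 2 and 3 (exact p = 0.1, adjusted p = 0.133). Plin2 therefore exceeded Plin3 in every L-proline library and in no PBS library, and made up 53.9% to 56.8% of the pair in L-proline and 45.7% to 48.9% in PBS. Slc27a1 to Slc27a4 was 2.78, 2.31 and 3.10 in L-proline 1, 2 and 3, against 2.12, 1.87 and 2.07 in PBS 1, 2 and 3 (exact p = 0.1, adjusted p = 0.133). Fabp5 to Fabp3 was 10.6, 29.0 and 10.3 in L-proline 1, 2 and 3, against 110.2, 56.1 and 72.1 in PBS 1, 2 and 3 (exact p = 0.1, adjusted p = 0.133), with few Fabp3 fragments behind it. Fabp5 to Fabp4 overlapped, at 5.56, 9.21 and 5.91 in L-proline and 5.06, 5.83 and 5.76 in PBS (exact p = 0.4, adjusted p = 0.4). Its mean log2 difference of 0.28 was 0.05 without L-proline 2.

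**Figure D3:**
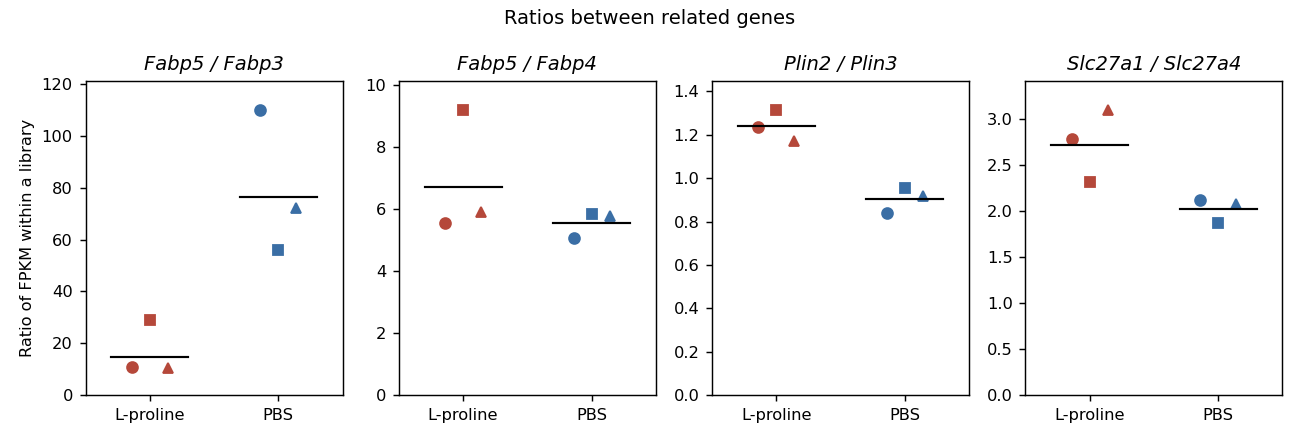
Ratio of FPKM values between related genes within each library (vertical axes, from 0) for L-proline and PBS; circles, squares and triangles are replicates 1, 2 and 3, and lines are geometric means. Plin2 to Plin3 is 1.17 to 1.32 in L-proline and 0.841 to 0.955 in PBS, and only Fabp5 to Fabp4 has groups that overlap.

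Other genes of the pathway were counted by list. Of the 52 tested, 4 rose and 5 fell, beside 7.5% and 12.1% of all genes, and with median-of-ratios scaling 6 rose and 3 fell. None of the 11 tested genes of lipid binding and uptake passed with limma or with voom, although 3 had an unadjusted p under 0.05. They were Slc27a3, a transport protein gene at 1.44 ± 0.309 FPKM in L-proline and 0.898 ± 0.179 FPKM in PBS (log2 fold change 0.36 ± 0.12, adjusted p = 0.0784), Got2, the mitochondrial aspartate aminotransferase gene (-0.23 ± 0.08, 0.0818), and Crabp2, a retinoic acid binding protein gene (-0.20 ± 0.07, 0.0895). The caveola genes Cavin1 and Cav2 had log2 fold changes of -0.20 ± 0.09 and -0.23 ± 0.17 (limma, adjusted p = 0.149 and 0.375). Quantile normalization called 1 gene of this list higher, Slc27a3 (limma, adjusted p = 0.0401), and 2 lower, Got2 (0.0421) and Cavin1 (0.0221). Of the genes named here, sample weights called Got2 (0.0442) and Cav2 (0.0187) lower. The replicate block called Got2 lower (0.0432) and Slc27a3 higher (0.0491). When 1 library was left out, the adjusted p of Slc27a3 ran from 0.0475 (without L-proline 2) to 0.198. The log2 fold change of Cav2 was then between -0.44 (without L-proline 1, adjusted p = 0.0177) and -0.06 (without L-proline 3, adjusted p = 0.805).

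Among 10 tested genes of droplet coat and assembly 1 fell and 0 rose. Aup1, whose protein sits on droplets and acts in protein quality control, averaged 37.6 ± 4.32 FPKM in L-proline and 46.9 ± 0.743 FPKM in PBS, or -0.32 ± 0.09 on the log2 scale (limma, adjusted p = 0.0451). It passed in 5 of 13 alternative analyses, with adjusted p between 0.0128 and 0.137. Leaving out any library except L-proline 1 ended the call: the adjusted p was 0.0531 and 0.0505 without L-proline 2 and 3, and 0.109 to 0.137 without any 1 PBS library. Faf2, a droplet protein gene that also serves protein quality control, had 0.25 ± 0.08 (adjusted p = 0.0583, and 0.0307 to 0.212 when 1 library was left out). Ldah, Spart and Hsd17b11, genes of proteins found on droplets, had 0.10 ± 0.07, 0.09 ± 0.07 and -0.10 ± 0.07 (adjusted p = 0.332, 0.375 and 0.386). The muscle and fat perilipin genes Plin5 and Plin1 were not among the genes listed, and Plin4 was at 0.461 ± 0.0261 FPKM in L-proline and 0.458 ± 0.0732 FPKM in PBS.

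Among 16 tested genes of triglyceride and sterol ester synthesis 1 rose and 3 fell. Other enzyme genes for the same steps did not pass, with log2 fold changes of -0.07 for Gpat3, 0.02 for Gpat4 and -0.09 for Dgat2 (limma, adjusted p = 0.648, 0.896 and 0.590). Gpam, the mitochondrial enzyme gene of the first acylation of glycerol phosphate, rose, at 12.6 ± 0.348 FPKM in L-proline and 8.90 ± 0.843 FPKM in PBS (log2 fold change 0.47 ± 0.09; limma, adjusted p = 0.00919), and passed in 13 of 13 alternatives. Dgat1, whose enzyme adds the last fatty acid, fell, at 15.2 ± 1.47 FPKM in L-proline and 20.1 ± 0.167 FPKM in PBS (-0.38 ± 0.08, adjusted p = 0.0175). Mogat2, a monoacylglycerol acyltransferase gene, fell as well, at 9.46 ± 1.54 FPKM in L-proline and 13.3 ± 0.285 FPKM in PBS (-0.46 ± 0.11, adjusted p = 0.0275). Neither passed when 1 PBS library was left out: without PBS 1, 2 and 3 the adjusted p was 0.0701, 0.0537 and 0.0757 for Dgat1 and 0.0983, 0.0611 and 0.0998 for Mogat2. The glycerol kinase gene Gk fell narrowly (-0.43 ± 0.13, adjusted p = 0.0478) and passed in 4 of 13 alternatives, and its adjusted p was 0.0971 and 0.111 without L-proline 2 and 3 and 0.162 and 0.175 without PBS 1 and 3. Agpat5, for the second acylation, had 0.29 ± 0.09 (adjusted p = 0.0601, and 0.0419 to 0.190 when 1 library was left out).

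The triglyceride breakdown list held lipases, their cofactors and inhibitors, with a cholesteryl ester hydrolase gene among them. Of its 8 tested genes 2 rose and 1 fell, and those that rose act on the PNPLA2 lipase in opposite ways. Abhd5, whose protein activates PNPLA2, averaged 14.8 ± 0.949 FPKM in L-proline and 12.1 ± 0.276 FPKM in PBS (log2 fold change 0.27 ± 0.08; limma, adjusted p = 0.0419). G0s2, whose protein inhibits it, averaged 8.84 ± 0.984 FPKM in L-proline and 6.71 ± 0.600 FPKM in PBS (0.35 ± 0.10, adjusted p = 0.0495). Each passed in 6 of 13 alternatives. For Abhd5 leaving out any 1 library gave an adjusted p of 0.0675, 0.0598 and 0.0589 (L-proline 1, 2 and 3) or 0.151, 0.102 and 0.133 (PBS 1, 2 and 3). For G0s2 it was 0.124 and 0.117 without L-proline 2 and 3, and 0.136, 0.135 and 0.0976 without PBS 1, 2 and 3. Nceh1, a cholesteryl ester hydrolase gene, fell, at 5.17 ± 0.839 FPKM in L-proline and 7.64 ± 0.301 FPKM in PBS (-0.49 ± 0.11, adjusted p = 0.0182). It did not pass without L-proline 2 (0.0521), PBS 1 (0.0763) or PBS 3 (0.0757). Angptl4, a PPAR target whose protein inhibits lipoprotein lipase, varied widely, at 20.8 ± 7.82 FPKM in L-proline and 36.3 ± 10.7 FPKM in PBS (-0.79 ± 0.28, adjusted p = 0.0833, and 0.0359 without L-proline 2 to 0.213 without PBS 3). With the replicate block the adjusted p of Angptl4 was 0.00374 (limma), and it passed in 2 of 13 alternatives. The lipase gene Ddhd2 had -0.26 ± 0.09 (adjusted p = 0.0913).

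**Figure D4:**
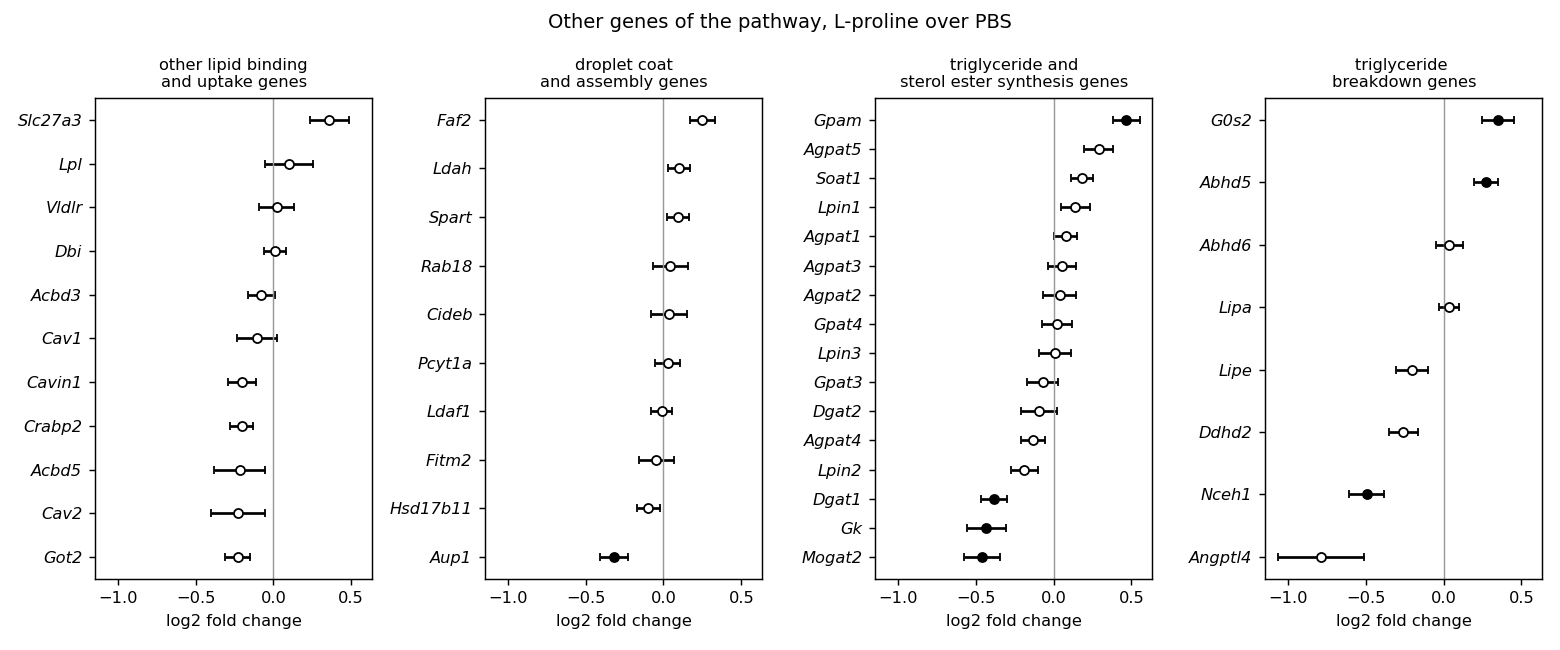
Log2 fold change, L-proline over PBS, on the log2(FPKM + 1) scale (horizontal axes) with its standard error for every tested gene of 4 pathway lists; filled circles have an adjusted p under 0.05. Filled circles lie on both sides of 0, from Nceh1 at -0.49 to Gpam at 0.47, and the lipid binding and uptake list has none.

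Regulators known to act on these genes were mostly without a called difference. Pparg averaged 2.68 ± 0.219 FPKM in L-proline and 2.78 ± 0.265 FPKM in PBS, a log2 fold change of -0.04 ± 0.09 whose sign was positive in 5 of 13 alternatives. Ppard had 0.07 ± 0.09, and Ppara, the PPAR form of heart muscle and liver, was at 0.0474 ± 0.0175 FPKM in L-proline and 0.0410 ± 0.00704 FPKM in PBS. Rxra, the shared partner of the PPARs, rose, at 17.3 ± 2.28 FPKM in L-proline and 13.2 ± 0.721 FPKM in PBS (0.36 ± 0.10; limma, adjusted p = 0.0442). Its adjusted p was 0.0514 and 0.0771 without L-proline 2 and 3, and 0.151, 0.0671 and 0.149 without PBS 1, 2 and 3. Rxrb had 0.27 ± 0.09 (adjusted p = 0.0757). Hif1a, for a HIF subunit regulated by oxygen, was at 106 ± 31.8 FPKM in L-proline and 133 ± 17.7 FPKM in PBS (-0.36 ± 0.20, adjusted p = 0.231). Its log2 fold change was -0.58 without L-proline 1 (adjusted p = 0.0160) and -0.16 without L-proline 3 (adjusted p = 0.548). Foxo1, a known activator of Pnpla2, and Tfeb, of lysosomal lipid breakdown, had -0.09 ± 0.10 and 0.08 ± 0.09. Epas1 and Ppargc1a stayed below 0.05 FPKM in both group means.

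Some markers of several cell types moved with the groups, while others of the same lists did not or went the other way. The summed level of the 2 listed adipocyte markers was 4.40 to 5.00 FPKM in L-proline and 2.51 to 2.80 FPKM in PBS, with Car3, a carbonic anhydrase gene, at 2.85 ± 0.497 FPKM in L-proline and 0.317 ± 0.185 FPKM in PBS (limma, adjusted p = 0.000481). The other, the hormone-sensitive lipase gene Lipe, lay the other way, at 1.89 ± 0.313 FPKM in L-proline and 2.32 ± 0.0849 FPKM in PBS (log2 fold change -0.21 ± 0.10, adjusted p = 0.192), without overlap. The 7 listed fibroblast markers summed to 4069 to 4475 FPKM in L-proline and 3367 to 3466 FPKM in PBS, with Lum, Thy1 and Tcf21 not listed. Of these 7, the collagen genes Col1a1, Col1a2 and Col3a1 rose and the growth factor receptor gene Pdgfra fell, at 5.97 ± 0.135 FPKM in L-proline and 7.84 ± 0.463 FPKM in PBS (-0.34 ± 0.08, adjusted p = 0.0215). Dcn and Postn had higher means in L-proline and did not pass (0.49 ± 0.15 and 0.49 ± 0.27, adjusted p = 0.0589 and 0.231). The groups overlapped for Postn and not for Dcn. The fibronectin gene Fn1 had -0.05 ± 0.06 (adjusted p = 0.570). The 8 listed cardiomyocyte markers summed to 16.9 to 20.2 FPKM in L-proline and 34.8 to 36.6 FPKM in PBS. Tnnt2 made up most of it and fell, at 14.5 ± 1.51 FPKM in L-proline and 32.0 ± 0.777 FPKM in PBS (-1.09 ± 0.09; limma, adjusted p = 0.000326). The Tnnt2 call was kept in 13 of 13 alternatives. Nkx2-5 had 3.34 ± 0.308 FPKM in L-proline and 3.43 ± 0.232 FPKM in PBS (-0.03 ± 0.09, adjusted p = 0.829). For macrophages, 5 of 10 markers were listed and summed to 21.8 to 25.4 FPKM in L-proline and 19.7 to 22.2 FPKM in PBS. Cd68 was at 5.19 ± 0.297 FPKM in L-proline and 3.17 ± 0.536 FPKM in PBS (limma, adjusted p = 0.0101). Cd14, with the highest level of the list, and Lyz2 did not pass (0.08 ± 0.10 and 0.10 ± 0.18, adjusted p = 0.583 and 0.723). Csf1r and Mrc1 stayed below 1 FPKM with overlapping groups. The 6 listed endothelial markers summed to 7.30 to 8.03 FPKM in L-proline and 7.01 to 7.30 FPKM in PBS, most of it Rgcc. Rgcc did not pass, though its groups did not overlap (0.13 ± 0.08; limma, adjusted p = 0.277). The 9 smooth muscle and pericyte markers summed to 1104 to 1322 FPKM in L-proline and 1210 to 1342 FPKM in PBS, most of it Acta2 (-0.04 ± 0.09, adjusted p = 0.754). Of the 7 tested, Notch3 rose, at 55.2 ± 6.78 FPKM in L-proline and 42.9 ± 0.785 FPKM in PBS (0.35 ± 0.09; limma, adjusted p = 0.0331). Tagln lay the other way without overlap and did not pass, at 64.3 ± 10.2 FPKM in L-proline and 84.0 ± 7.75 FPKM in PBS (-0.39 ± 0.12, adjusted p = 0.0569). The part of these markers in the differences of the 10 genes was not tested.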

How the data were processed

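The authors deposited 1 table of FPKM values with 6 library columns, per the file headers. HISAT2, HTSeq 0.13.5 and build GRCm39 appear in the submitters' processing notes, without roles, and how genes were chosen for the table was not stated. A change in a few abundant genes shifts the FPKM of all others. Groups and replicate numbers come from the sample titles.

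Genes averaging 1 FPKM or more were tested with limma 3.58.1 (R 4.3.3) on log2(FPKM + 1), with a mean-variance trend, two-sided, and Benjamini-Hochberg adjustment over 10500 genes at 0.05. This scale understates fold changes of low genes. Ratios within a library were compared by exact permutation (scipy 1.17.1). Whole fragments were recovered for 14407 of 14408 genes, with totals solved from 13 mitochondrial genes and lengths the smallest giving whole fragments within 0.01. Floors (3 fragments) cover counting error only. The steps were checked on simulated data. For limma these had independent libraries and the same spread setting for all genes, so that check does not measure false calls in these libraries. Levels are mean ± SD (n = 3), and errors of log2 fold changes are SE.

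All 10 genes are named, with up to 5 tested genes of smallest unadjusted p per pathway list, all listed regulators, and markers for their levels. Plin4, Gpat3, Gpat4, Dgat2, Zcchc17 and the neighbours of Fabp4 and Fabp5 were singled out after seeing the data. The genes and lists were chosen with earlier results of these data known. Alternatives were another pseudocount, no filter, other scalings, sample weights, voom, a replicate block and leaving out each library.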

Additional observations from a re-analysis of the deposited data

How the results depend on the processing

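The 6 called genes kept their direction in all 13 alternatives, and 5 to 6 of the 8 tested passed when 1 library was left out, Hilpda being the gene lost. With 1 library left out, the log2 fold change of Slc27a4 ran from -0.0127 (without L-proline 2) to 0.128, and that of Plin3 from -0.0118 (without L-proline 3) to 0.104. With a pseudocount of 0.1 FPKM the log2 difference of Fabp3 was 1.24, against 0.60 with 1 FPKM. The 4 ratios kept their sign, but with 1 FPKM added to each value the log2 difference of Fabp5 to Fabp3 was -1.52, against -2.38, and that of Fabp5 to Fabp4 was 0.06, against 0.28. Over the pathway lists 9 genes were called, 19 with sample weights and 1 to 12 when 1 library was left out: 5 without L-proline 2, 5 without L-proline 3, 1 without PBS 1, 3 without PBS 2 and 1 without PBS 3. Over all genes 2056 were called (788 higher, 1268 lower), 4671 with sample weights and 874 to 2770 when 1 library was left out, the lowest being 874 without PBS 3 and 976 without PBS 1. Median-of-ratios scaling split them 1003 higher and 966 lower, and quantile normalization 1077 higher and 1019 lower. The cause of these shifts was not tested. Pparg turned positive with median-of-ratios scaling (0.0018), quantile normalization (0.0758) and sample weights (0.0537), and ran from -0.0933 to 0.0126 when 1 library was left out, being positive without L-proline 3 or PBS 1. Foxo1 was 0.0136 with quantile normalization and Tfeb -0.0059 with sample weights. With 1 library left out Ppard ran from -0.0048 to 0.129 and Impa1 from -0.182 to 0.0237, each changing sign without L-proline 3. The alternatives for genes outside the 10 were listed after seeing the data. Same-numbered libraries deviated together for numbers 1 and 2 (r = 0.651 and 0.416) but not 3 (r = -0.348), so the numbers were not taken as pairs. With the replicate block 6 of the 10 genes were called, 12 pathway genes and 2383 genes in all. The block left the ratio differences at -2.38, 0.28, 0.46 and 0.43 on the log2 scale for Fabp5 to Fabp3, Fabp5 to Fabp4, Plin2 to Plin3 and Slc27a1 to Slc27a4. With every number in both groups, these differences could not change. Nor could the log2 fold changes of single genes, with the block or without the filter, so those settings do not test direction. Depth limits Cd36.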
